A study of Mus musculus with 2 samples.

Results

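In droplet single-cell sequencing of mouse liver macrophage preparations, 136 droplets of 1 library carried Kupffer cell transcripts and red cell lineage transcripts under the same barcode. They were chosen by measured values. A droplet of library 2 needed at least 200 detected genes and at most 20% mitochondrial transcripts. The Kupffer genes Clec4f, Cd5l and C1qa together had to make up at least 0.8% of its unique molecular identifiers (UMIs, the tags that count captured transcripts). The erythroid genes Klf1, Car1, Hemgn and Slc4a1 together had to reach at least 4 UMIs. The 136 joint droplets were 1.96% of the 6942 barcodes of library 2 that passed the gene and mitochondrial limits (exact Clopper-Pearson 95% interval 1.65 to 2.31), of 10430 such barcodes in both libraries. The rule found 0 of 3488 in library 1, which held 2253 Kupffer-only and 44 erythroid-only droplets. The libraries were not matched for depth, and a minimum of 4 UMIs is easier to reach in a deep droplet. Joint droplets were set beside 3052 Kupffer-only droplets of the same library, with the same Kupffer share and 0 UMIs of the 4 erythroid genes, and beside 663 erythroid-only droplets, with at least 4 such UMIs and a Kupffer share under 0.4%.

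The study profiled non-parenchymal liver cells of untreated male mice of 8 to 10 weeks, 1 of the genotype Spta wt/wt and 1 Spta sph/sph, enriched with beads against F4/80, a macrophage surface protein. Mice with 2 sph alleles are known for red cells that break easily, with anemia as a result. The barcodes form 2 libraries known by number only, and the labels tie neither number to a mouse. All values below are from library 2, with no genotype attached. Droplets of 1 library are not replicates, so no test was made and no difference has a replicate check. Intervals are exact 95% intervals and cover counting error only.

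Kupffer cells are the resident macrophages of the liver sinusoids. They take up old and damaged red cells, break down the heme and return the iron. Macrophages that hold maturing erythroblasts at their surface form erythroblastic islands, where they also clear the nuclei that erythroblasts expel. A droplet with both kinds of transcript can hold a macrophage with an attached, engulfed or merely co-captured red cell precursor, or RNA free in the suspension. The counts alone cannot tell these apart.

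The Kupffer genes of the rule lie on chromosomes 3, 4 and 6 of GRCm38 in the GENCODE M21 annotation. Clec4f, a Kupffer cell lectin, spans 83644542 to 83656187 on chromosome 6. Cd5l, a secreted macrophage protein, spans 87357881 to 87371073 on chromosome 3, and C1qa, a subunit of complement C1q, spans 136895917 to 136898803 on chromosome 4. Of the erythroid genes, Klf1, a master transcription factor of the lineage, spans 84901928 to 84905291 on chromosome 8. Car1, a carbonic anhydrase of red cells, spans 14766216 to 14808368 on chromosome 3. Hemgn, the nuclear protein hemogen, spans 46393989 to 46413506 on chromosome 4. Slc4a1, the anion exchanger band 3 of the red cell membrane, spans 102348824 to 102366203 on chromosome 11. All 7 are protein-coding genes, and the assay reads their 3′ ends.

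The rule did not separate a distinct cluster of droplets. Among the 4286 droplets past the Kupffer share, 3052 had 0 UMIs of the 4 erythroid genes, 814 had 1, 207 had 2, 77 had 3 and 45 had 4. A further 21 had 5, 45 had 6 to 9, 15 had 10 to 19, 8 had 20 to 49 and 2 had at least 50. Numbers declined from 0 to 5 UMIs with no gap at the limit of 4. On the other axis, the Kupffer share lay at 0.8005% just inside the limit and 0.7937% just outside. Of the 883 droplets with at least 4 erythroid UMIs, 136 (15.4%) met the Kupffer share, against 69.1% of the 4414 droplets with 0.

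**Figure D1:**
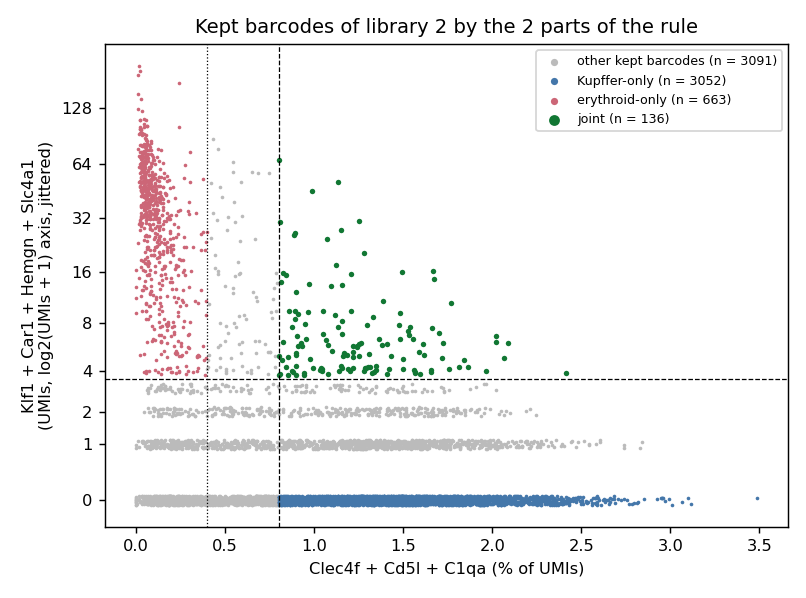
Every kept barcode of library 2 by its Clec4f, Cd5l and C1qa share of UMIs (horizontal, %) and its UMIs of Klf1, Car1, Hemgn and Slc4a1 (vertical, log2(UMIs + 1) axis, jittered). Dashed lines mark the limits of 0.8% and of 4 UMIs, the dotted line marks 0.4%, and the 136 joint droplets thin out above the limit of 4 with no gap from the droplets below it.

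The label of a joint erythroblast program held only in part. Slc4a1 had a UMI in 132 of the 136 joint droplets (97.1%), with 0 to 31 UMIs per droplet and a median of 5. Hemgn was seen in 52 (38.2%; 0 to 27 UMIs), Klf1 in 33 (24.3%; 0 to 7 UMIs) and Car1 in 25 (18.4%; 0 to 7 UMIs). The last 3 genes had a median of 0 UMIs. Only 1 of the 4 genes was detected in 73 joint droplets (53.7%), and all 4 were detected in 11 (8.09%). Among erythroid-only droplets, 34.5% had all 4. Gata1, the transcription factor that drives erythroid fate, was outside the rule and had a UMI in 10 joint droplets (7.35%, interval 3.58 to 13.1) against 60.9% of erythroid-only and 0.557% of Kupffer-only droplets.

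Slc4a1 accounted for 866 of the 1153 erythroid rule UMIs of the joint droplets, or 75.1% (72.5 to 77.6). Its part was 43.9% in erythroid-only droplets and 77.3% in the 1098 droplets past the Kupffer share with 1 to 3 such UMIs. Within the joint droplets it was 82.8% at exactly 4 UMIs, 82.7% at 5 to 9 and 66.7% at 10 or more. Hemgn, at 14.9% of the joint total, took 6.11%, 9.22% and 22.2% in the same 3 ranges. On these 2 genes the range of 10 or more lay nearest to erythroid-only droplets. Car1 did not follow, at 6.11%, 5.44% and 3.82% against 17.6% in erythroid-only droplets. Without Slc4a1, only 22 joint droplets (16.2%) kept 4 UMIs.

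**Figure D2:**
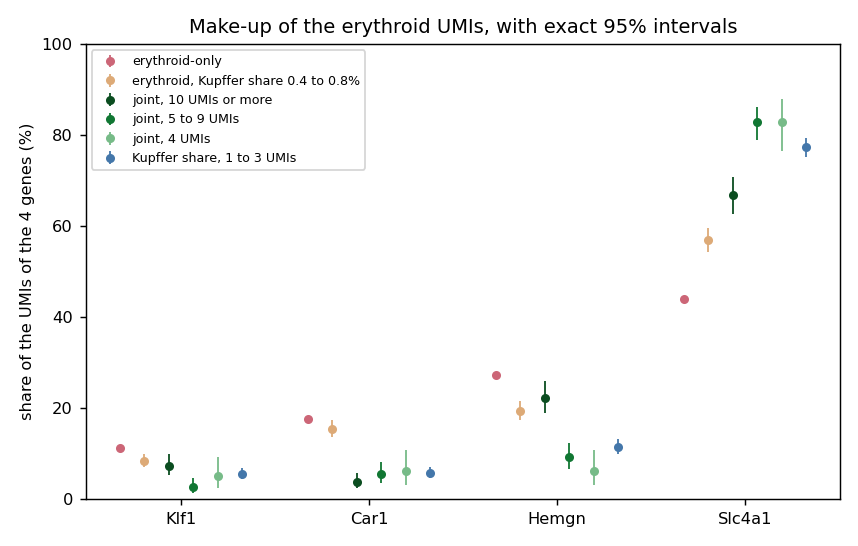
Share of the UMIs of Klf1, Car1, Hemgn and Slc4a1 taken by each gene (vertical, %) in 6 sets of droplets (colors), with exact 95% intervals as bars. Slc4a1 takes 82.8% in joint droplets at 4 UMIs and 43.9% in erythroid-only droplets.

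The Kupffer genes of the rule were present by selection. Cd5l had a UMI in 136 of 136, with 4 to 225 UMIs and a median of 73.5. C1qa had one in 135 (0 to 143, median 47) and Clec4f in 128 (94.1%; 0 to 86 UMIs, median 25). Outside the rule, Marco, a scavenger receptor, had a UMI in 136 joint droplets, Vsig4, a complement receptor, in 123 (90.4%) and Timd4, a phosphatidylserine receptor, in 100 (73.5%). The last 2 were seen in 87.8% and 54.2% of the shallower Kupffer-only droplets and in 56.1% and 13.1% of erythroid-only droplets. Marco had a UMI in 99.5% of erythroid-only droplets, at a level of 784 UMIs per 1000000 UMIs of the pooled droplets (CPM) against 9793 in joint droplets, so its detection alone did not mark a Kupffer cell.

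Joint droplets were deep. They held 769 to 39150 UMIs with a median of 11518, against a median of 4578.5 in Kupffer-only and 9338 in erythroid-only droplets. The median was 2.52 times that of Kupffer-only droplets and 1.23 times that of erythroid-only droplets. It was 0.828 times the sum of both medians, 13916.5 UMIs. Joint droplets had a median of 3158.5 detected genes, against 1838 in Kupffer-only and 1747 in erythroid-only droplets. Their median mitochondrial share, 11.7%, lay near the 12.3% of Kupffer-only droplets and above the 6.13% of erythroid-only droplets.

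A minimum number of erythroid UMIs is easier to reach in a deep droplet. Of the 1357 droplets past the Kupffer share with under 2000 UMIs, 1.18% were joint (16 droplets, interval 0.675 to 1.91). The share was 1.90% at 5000 to 10000 UMIs, 6.74% at 10000 to 15000 and 8.78% at 15000 or more (38 droplets, 6.29 to 11.8). The pooled level of the 4 erythroid genes did not follow that order. It was 279 CPM under 2000 UMIs, 60.9 CPM at 5000 to 10000 and 88.1 CPM at 15000 or more.

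**Figure D3:**
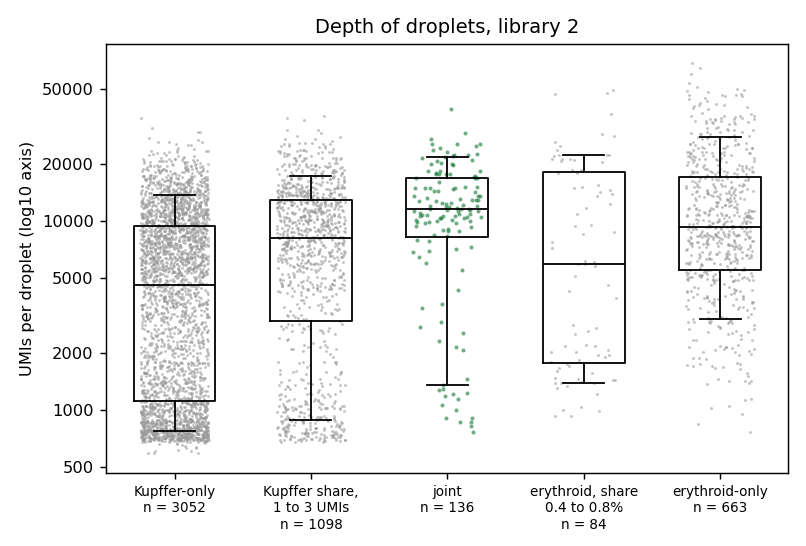
UMIs per droplet (vertical, log10 axis) in 5 classes of library 2, with each droplet as a point, boxes from the lower to the upper quartile, a line at the median and whiskers from the 10th to the 90th percentile. The joint droplets (green) have a median of 11518 UMIs, above the 4578.5 of Kupffer-only droplets.

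Barcode sequences recur between the libraries. The sequence of 44 joint droplets (32.4%) was also present in library 1, against 934 of the 6942 kept barcodes of library 2 (13.5%). All 44 were deeper in library 2, by 22.2 to 32.3 times (median 27.2). In library 1, 42 of these 44 sequences were among the kept barcodes. The joint droplets with a shared sequence were the deeper ones. They had a median of 19104 UMIs and the other joint droplets 9939.5. Over all kept barcodes of library 2, shared sequences had a median of 17216.5 UMIs and the others 3507.5. Without the shared sequences, 92 joint droplets remained, 1.53% of kept barcodes, with a median depth 0.959 times the sum of both reference medians.

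RNA in the suspension was read from droplets of other lineages. These were 190 droplets that met a marker rule for hepatocytes, endothelial cells, neutrophils, B cells, stellate cells, monocytes or the few other lineages, with a Kupffer share under 0.4% and globin under 10% of UMIs. None reached 4 UMIs of the 4 erythroid genes (0 of 190, interval 0 to 1.92%). Past the Kupffer share and under the same globin limit, 69 of 3646 droplets were joint (1.89%, 1.48 to 2.39). The intervals overlap, and no test of the difference in share was made. The level of the 4 genes was 31.1 CPM in other lineages (20.8 to 44.7) and 63.0 CPM in droplets past the Kupffer share (59.9 to 66.2), at median depths of 4098.5 and 5581 UMIs. After thinning every droplet to 2000 UMIs, which left out shallower ones, 6.83% of 161 other-lineage droplets had at least 1 such UMI (3.46 to 11.9) and 9.89% of 2498 droplets past the Kupffer share did (8.74 to 11.1). The unthinned shares were 13.7% and 25.4%. Of 29 such UMIs in other lineages, 20 were Slc4a1.

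To ask whether a sum of both cell types describes the joint profile, the pooled CPM of the joint droplets was fitted as a weighted sum of the Kupffer-only and erythroid-only pools, leaving out the 7 rule genes. The best fit had 77.9% Kupffer and 22.1% erythroid UMIs. The mean depths of the references, if 1 of each were added whole, would give 68.4% erythroid UMIs. Without the globin genes the erythroid part was 8.75%. Of 3773 genes at 50 CPM or more in a pool, 88.5% lay within 1.5-fold of the sum and 96.3% within 2-fold. The Kupffer-only pool alone placed 89.0% within 1.5-fold and 93.0% within 2-fold, and the erythroid-only pool alone 23.1% and 38.7%. The median absolute difference was 0.18 on the log2 scale for the sum and 0.21 for Kupffer-only. Adding the erythroid part thus placed more genes within 2-fold and slightly fewer within 1.5-fold. Without barcode sequences shared between the libraries, the erythroid part was 18.8% and 7.39% of genes lay outside 1.5-fold, against 11.5% with them.

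Misfits of the sum lay mostly to one side. Only 20 genes (0.53% of 3773) were at least 1.5-fold above the sum, and 415 (11.0%) were at least 1.5-fold below. The erythroid-only droplets span maturation, so they were split, after these values had been seen, by globin share into 169 droplets under 10%, 255 at 10 to 50% and 239 at 50% or more. Kit, a receptor of early progenitors, was at 23.3, 0.755 and 0 CPM in these stages, while Alas2, the enzyme that starts heme synthesis in red cell precursors, was at 66.2, 692 and 1536 CPM. With the stages as separate references, the joint profile was fitted as 83.6% Kupffer, 2.58% under 10%, 0.678% at 10 to 50% and 13.2% at 50% globin or more. The last stage was 80.1% of the erythroid part, which came to 16.4% in all. This sum placed 98.1% of genes within 1.5-fold and 99.7% within 2-fold, with 20 genes above and 53 below. A fit with more references has more freedom, so a closer fit is in part its construction. Globin genes, which set the stages, were kept in this fit, so its weights rest in part on them.

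**Figure D4:**
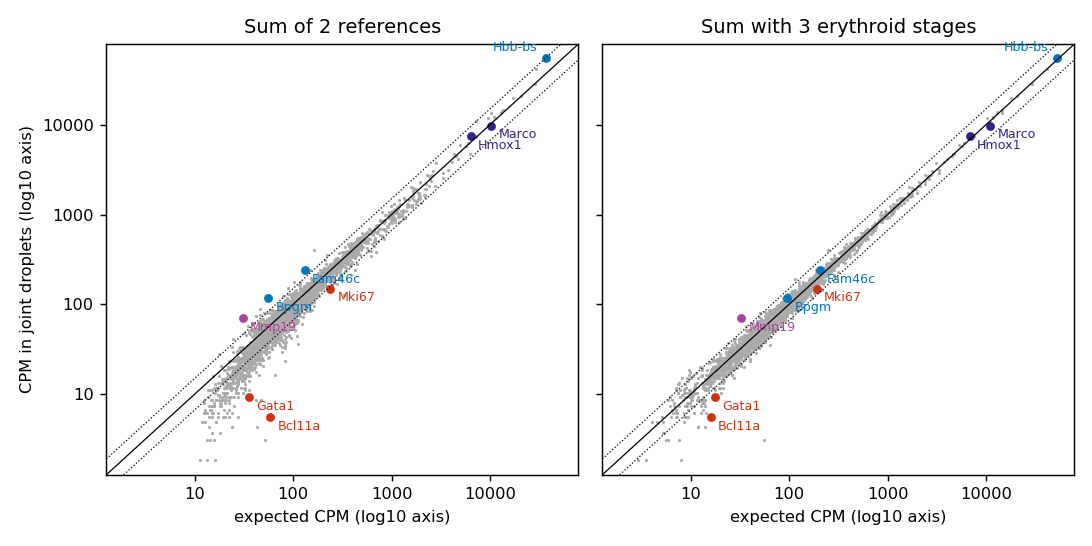
CPM of each of 3773 genes in the joint pool (vertical, log10 axis) against the CPM expected from a sum of the Kupffer-only and erythroid-only pools (left) and from Kupffer-only with 3 erythroid stages (right, both log10 axes). The solid line is equality and dotted lines are 1.5-fold; 88.5% of genes lie between the dotted lines on the left and 98.1% on the right.

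Genes that define Kupffer cells were a little lower in joint than in Kupffer-only droplets and matched the sum. Of 11 identity genes outside the rule, 0 were 2-fold from Kupffer-only droplets, where 7.02% of all tested genes were 2-fold higher and 0.053% 2-fold lower, and all 11 were within 1.5-fold of the sum (11.5% of tested genes were outside it). All 11 were at least 2-fold above erythroid-only droplets, as were 35.1% of tested genes. Members of this and later lists needed 10 CPM in a pool, and the tested genes 50 CPM. The median log2 difference of the 11 from Kupffer-only was -0.32, against -0.12 over all genes tested. Marco stood at 9793 CPM (9642 to 9946) against 13079 in Kupffer-only droplets, 0.749 times as high. Timd4 was at 190 CPM against 245, and Vsig4 at 1620 against 2108. Csf1r, the receptor for the main macrophage growth factor, was at 1067 CPM against 1194. Adgre1, which encodes the F4/80 protein that the beads bind, was at 673 CPM in joint, 833 in Kupffer-only and 34.9 in erythroid-only droplets.

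Heme and iron recycling genes were near their Kupffer-only level. All 13 were within 1.5-fold of the sum, as were 88.5% of tested genes. Their median log2 difference was -0.11 from Kupffer-only and 0.17 from the sum. Hmox1, the inducible enzyme that breaks down heme, was at 7488 CPM in joint and 8054 in Kupffer-only droplets, 0.930 times as high (0.913 to 0.947). Slc40a1, the iron exporter ferroportin, was at 2702 against 3057 CPM. Spic, the heme-responsive transcription factor of iron-recycling macrophages, was at 305 against 340 CPM. Fth1 and Ftl1, the ferritin subunits, were at 19998 and 11977 CPM against 20437 and 11600.

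Genes for erythroblastic island contact and nucleus clearance did not stand out. All 12 lay within 1.5-fold of the sum, as did 88.5% of tested genes. Their median log2 difference from Kupffer-only droplets was -0.12, the same as over all genes. Vcam1, which binds integrins on erythroblasts, was at 2045 CPM against 1971 (1.04 times, 1.002 to 1.075). In the 90 joint droplets of 10000 UMIs or more it was at 2024 CPM, and in the 679 Kupffer-only droplets of that depth at 1965. Siglec1, an island macrophage lectin, was at 60.4 against 60.0 CPM, and Maea, the erythroblast macrophage protein, at 44.5 against 42.1. Dnase2a, which digests DNA of engulfed nuclei, was at 184 against 196 CPM, and the uptake receptor Mertk at 446 against 470. All 7 dying-cell uptake genes and 13 lysosome genes were within 1.5-fold of the sum as well. Lrp1, an endocytic receptor, was at 445 CPM against 538, and Msr1, a scavenger receptor, at 204 against 280.

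Globin transcripts were abundant in the joint droplets but spread widely. They made up 0.120% to 46.9% of UMIs in single joint droplets, with a median of 9.60%, against a median of 1.30% in Kupffer-only and 35.7% in erythroid-only droplets. The ranges overlapped, since Kupffer-only droplets reached 64.5%. Hbb-bs, an adult beta globin, had 4 to 3350 UMIs per joint droplet and stood at 55184 CPM against 17465 in Kupffer-only and 107100 in erythroid-only pools. It was 3.16 times as high as in Kupffer-only droplets. The 4 globin genes were 0.42 to 0.59 above the 2-reference sum on the log2 scale, and their median was -0.0032 from the stage sum. The stages were cut by globin share and their fit kept the globin genes. A small difference of globin from the stage sum was thus favored in advance. The alpha genes Hba-a1 and Hba-a2 have almost the same sequence, as do the beta genes Hbb-bt and Hbb-bs, which leaves the division of reads within each pair uncertain.

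Of 12 heme synthesis genes, 10 were at least 2-fold above Kupffer-only droplets (7.02% of tested genes were). Alas2 had 0 to 22 UMIs per joint droplet (median 2) and a UMI in 79.4% of them, against 26.5% of Kupffer-only and 85.7% of erythroid-only droplets. Its level was 307 CPM in joint, 104 in Kupffer-only and 587 in erythroid-only pools. Slc25a37, the mitochondrial iron importer mitoferrin, was at 470, 118 and 1590 CPM. Cpox, an enzyme of the later pathway, was at 154 CPM, with a log2 difference of -0.68 from the 2-reference sum. From the stage sum, the 12 genes differed by a median of -0.03 and all 12 lay within 1.5-fold (98.1% of tested genes did). Their median difference from the 2-reference sum was -0.37, and 0.46 where globin genes were left out of the fit.

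All 14 red cell membrane and skeleton genes were at least 2-fold above Kupffer-only droplets, and 13 of 14 at least 2-fold below erythroid-only droplets (26.2% of all tested genes were). Rhag, the Rh-associated glycoprotein, had a UMI in 45 joint droplets (33.1%) and in 85.4% of erythroid-only droplets. Its level was 61.6 CPM, 20.1 times the Kupffer-only level (14.4 to 28.4). Epb42, protein 4.2 of the band 3 complex, was at 32.3 CPM against 1.81. Ank1, the ankyrin that ties band 3 to the skeleton, was at 48.2 CPM (38.1 to 60.0) against 5.09 in Kupffer-only and 268 in erythroid-only droplets. Of the 14 genes, 5 were 1.5-fold below the 2-reference sum and 1, Epb41 (protein 4.1), was above it, while 3 were below the stage sum and 0 above. Their median difference from the 2-reference sum was -0.35, and 0.78 where globin genes were left out of the fit.

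Of 9 erythroid regulators and receptors, 6 were at least 2-fold above Kupffer-only droplets (7.02% of tested genes) and all 9 at least 2-fold below erythroid-only droplets (26.2%). The rule favors the first count. Gata1, Kit and the regulator Gfi1b met the 10 CPM minimum only in the erythroid-only pool, which favors the second. Against the 2-reference sum 4 of 9 were 1.5-fold below (11.0%), with a median log2 difference of -0.56, and against the stage sum 1 of 9, with a median of -0.19. Gata1 had 15 UMIs over all joint droplets, 9.15 CPM (5.12 to 15.1) where the 2-reference sum gives 35.5 and the stage sum 17.8. Tal1, its partner factor, was at 61.6 CPM against 5.31 in Kupffer-only and 394 in erythroid-only droplets. Tfrc, the transferrin receptor for iron uptake, was at 198, 60.6 and 976 CPM in that order. Kit had 1 UMI.

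Cell cycle genes depended on which erythroid reference was used. Of 19, 17 were at least 2-fold above Kupffer-only droplets (7.02% of tested genes), led in level by Ube2c at 168 CPM against 32.3 and Mki67 at 149 against 24.1. Against the 2-reference sum 14 of 19 were 1.5-fold below (11.0% of tested genes), with a median log2 difference of -0.75. Against the stage sum the median was 0.10, with 18 of 19 within 1.5-fold (98.1% of tested genes were). Without the globin genes in the 2-reference fit it was 0.31. Top2a, the mitotic topoisomerase, was at 96.4 CPM, where the 2 sums give 162 and 92.3. Hmgb2, a chromatin protein, was at 127 CPM, where they give 329 and 164.

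Late maturation genes were in part above the 2-reference sum. Of 8 at 10 CPM or more in a pool, 7 were at least 2-fold above Kupffer-only droplets and 4 were 1.5-fold above the sum, where 0.53% of tested genes were. Their log2 differences from the 2-reference sum ran from -0.061 (Isg20, an interferon-induced exonuclease) to 1.08 (Bpgm). The median was 0.58 from that sum, -0.31 from it with the rule of Klf1, Car1 and Hemgn alone, and 0.14 from the stage sum. Against the stage sum 7 lay within 1.5-fold, as did 98.1% of tested genes. Bpgm, which makes the red cell oxygen regulator 2,3-bisphosphoglycerate, had a UMI in 62 joint droplets (45.6%), 12.5% of Kupffer-only and 44.6% of erythroid-only droplets. It was at 118 CPM against 31.7 and 140 in the 2 references, and at 518 in the stage of 50% globin or more. Ube2o, a ubiquitin ligase that remodels the reticulocyte proteome, was at 89.0 CPM, with 367 in that stage. Fam46c, a poly(A) polymerase, was at 241 CPM with 1032 there. Mkrn1, another ubiquitin ligase, was at 351 CPM against 140 in Kupffer-only droplets.

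Further macrophage groups gave few differences of 2-fold. Of 6 MHC class II genes, 1 was 2-fold lower than in Kupffer-only droplets (0.053% of tested genes were) and the median log2 difference was -0.57. H2-Eb1, a class II beta chain, was at 34.8 CPM against 75.1, and Cd74, the class II chaperone, at 338 against 495. Of 8 dissociation and stress genes, Fos and Atf3 were 2-fold lower, at 17.7 against 45.2 and 14.0 against 29.7 CPM, while Dnajb1 and Hspa1b, heat shock proteins, were at 54.3 against 46.4 and 75.6 against 71.1. The 6 inflammatory genes were within 1.5-fold of the sum (88.5% of tested genes were), with Il1b at 35.4 CPM against 44.6. The 6 lipid-associated macrophage genes were also within it, with Trem2 at 45.7 CPM against 46.6. Of these 6, Fabp5, a fatty acid binding protein, was at 190 CPM against 110 in Kupffer-only droplets and lay 0.74 above the stage sum on the log2 scale. Ribosomal protein genes had a median log2 difference of -0.31 from the 2-reference sum and 0.03 from the stage sum, over 91 genes.

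Markers of further lineages were low in joint droplets. The 8 hepatocyte genes made up 0.120% of joint UMIs against 0.157% in Kupffer-only droplets, and 1 joint droplet met the hepatocyte marker rule. None met the rule for the other 9 lineages. All 6 T or NK cell markers and all 4 mast cell or basophil markers were at 0 UMIs, as were 7 of 9 neutrophil and 3 of 6 platelet markers. The 6 stellate cell or fibroblast markers made up 0.0224% of joint and 0.0200% of Kupffer-only UMIs. A single joint droplet held 207 of the 293 joint UMIs of Dcn, the proteoglycan decorin (70.6%), and without it the joint share of the list was 0.00786%.

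Few genes lay outside both references, where no weight of the 2 can place them. Mmp19, a matrix metalloproteinase, was at least 1.5-fold above both (0.0265% of tested genes), at 70.1 CPM (57.9 to 84.2) against 38.6 and 2.33. Mmp19 reached the 50 CPM minimum only in the joint pool, so its selection rests on the pool where it is high. A single joint droplet gave 28.7% of its UMIs, and the level without that droplet was not computed. Mmp19 was at 75.8 CPM in joint droplets of 10000 UMIs or more and 32.5 (13.1 to 66.9) in shallower ones. Another 4 genes were at least 1.5-fold below both (0.106%), among them Cdc73, Dhx36 and Rtcb at 21.3 to 29.3 CPM in joint droplets. These genes were named after their values were seen. Without the shared barcode sequences 16 genes lay outside both references.

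The genes farthest above the 2-reference sum were mostly those high in the stage of 50% globin or more. Rsad2, the interferon-induced protein viperin, led them at 404 CPM (374 to 436) against 117 in Kupffer-only droplets, 1.32 above the sum on the log2 scale and 0.72 above the stage sum. It was at 1109 CPM in the stage of 50% globin or more and 16.1 in that under 10%. Isg15, an interferon-induced ubiquitin-like protein, was at 75.6 CPM and 0.72 above, with 340.5 CPM in the same stage. Tmcc2 was at 153 CPM against 9.96 in Kupffer-only droplets, with log2 differences of 0.78 from the 2-reference sum and -0.30 from the stage sum. Fam213a, Cdr2, Gadd45a and Epb41 were 0.73 to 0.82 above the 2-reference sum and 0.37 to 0.39 above the stage sum. Glrx, a glutaredoxin, was at 57.9 CPM against 42.0 in Kupffer-only droplets and under 13 CPM in every erythroid stage.

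The genes farthest below the sum were mostly those high in the stage under 10% globin. Apart from Ighm, these genes reached the 50 CPM minimum only in the erythroid-only pool, which favors a place below the sum. Bcl11a, a repressor of fetal globin genes, was at 5.49 CPM (2.51 to 10.4) against 436 CPM in that stage and 5.74 at 50% globin or more. Its log2 difference was -3.41 from the 2-reference sum and -1.55 from the stage sum. C1qtnf12 was at 4.27 CPM against 380 and 2.09 in the same stages, and Hmgb3 at 8.54 against 322 and 24.5. Atp1b2, Podxl, Cited4 and Mthfd1 were each at 5.49 to 8.54 CPM, where the stage under 10% globin had 158 to 287. The log2 difference of Smim1 from the 2-reference sum was -2.00. Ncapg, a condensin subunit, was at 4.27 CPM, with log2 differences of -2.47 from the 2-reference sum and -1.72 from the stage sum. Ighm, an immunoglobulin heavy chain, had the lowest log2 difference, -4.09, but 1 Kupffer-only droplet held 85.7% of the Ighm UMIs of that reference.

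The joint droplets varied widely among themselves. Fitted 1 by 1 with the 2-reference sum, the erythroid part ran from 0 to 76.6% of a droplet's UMIs with a median of 16.6%. It was under 5% in 33 droplets, 5 to 10% in 15, 10 to 25% in 31, 25 to 50% in 40, 50 to 75% in 14 and above 75% in 3. The parts over 25% numbered 57 (41.9%), against 7.96% of Kupffer-only droplets and 18.1% of those with 1 to 3 erythroid UMIs. The rule itself orders these classes by erythroid UMIs, and Kupffer-only droplets form a reference of the fit. A higher part in joint droplets was thus favored in advance. The mark of 25% was set after these values were seen, and the weights rest mainly on globin genes. In UMIs, the erythroid part had a median of 1169, where an erythroid-only droplet had 9338. The Kupffer part had a median of 9511.5, above the 4578.5 of Kupffer-only droplets, whose rule of 0 erythroid UMIs favors shallow droplets.

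The erythroid part also differed with depth. A shallow droplet reaches 4 erythroid UMIs only where they make up a large share of its UMIs, so the rule itself favors a large part there. The 16 joint droplets under 2000 UMIs had a median erythroid part of 56.7% (14.3 to 76.6) and a median of 1102 UMIs in all. The 120 deeper ones had a median of 14.8% (0 to 65.7). Droplets at exactly 4 erythroid UMIs had a median part of 7.73%, those at 5 to 9 had 16.9% and those at 10 or more 38.7%. The droplet with the most erythroid UMIs had 64 of them in 25610 UMIs, of which 24.8% were globin, with a fitted erythroid part of 52.9%. The deepest, at 39150 UMIs, had 5 erythroid UMIs, 0.120% globin and a part of 5.77%.

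**Figure D5:**
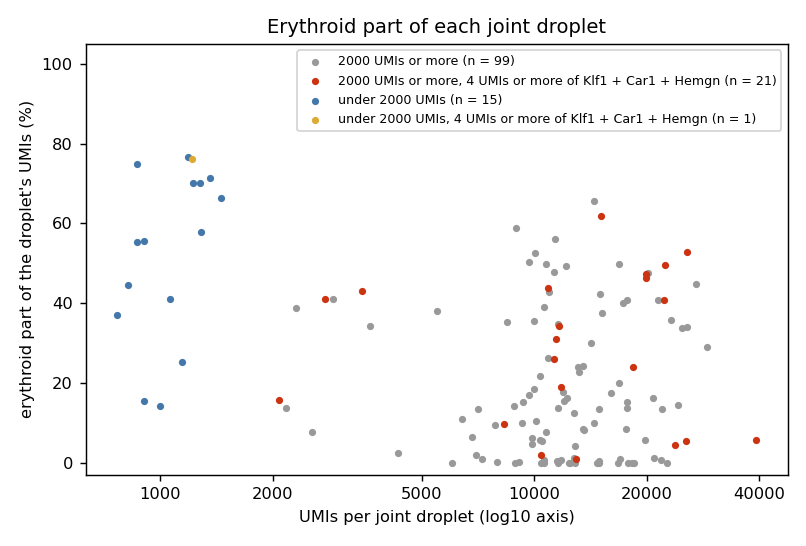
Fitted erythroid part (vertical, % of UMIs) of each of the 136 joint droplets against its depth (horizontal, UMIs, log10 axis). The 16 droplets under 2000 UMIs have a median part of 56.7% and the 120 deeper ones 14.8%; red and yellow points are the 22 droplets with at least 4 UMIs of Klf1, Car1 and Hemgn.

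The 22 joint droplets with at least 4 UMIs of Klf1, Car1 and Hemgn differed in profile from the other 114, whose place rested on Slc4a1. The division uses rule genes and was made after the data were seen, so the values are a description. In the stage fit, the 22 were 72.0% Kupffer, and 86.5% of their erythroid part came from the stage of 10 to 50% globin. The 114 were 86.2% Kupffer, and 99.9% of their erythroid part came from the stage of 50% globin or more. The 19 cell cycle genes made up 0.345% of UMIs in the 22, 0.0555% in the 114, 0.0343% in Kupffer-only and 0.742% in erythroid-only droplets. Mki67 was at 509 CPM in the 22 and 58.8 in the 114, Top2a at 387 and 22.9, Tal1 at 179 and 32.1, and Gata1 at 33.3 and 3.05. Late maturation genes ran the other way, with Bpgm at 27.2 CPM in the 22 and 141 in the 114, and Fam46c at 96.9 and 277.

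Kupffer genes outside the rule were not equal in both sets, and every droplet of both had to pass the Kupffer share. The 11 identity genes made up 1.51% of UMIs in the 22 and 2.00% in the 114, against 2.39% in Kupffer-only droplets. Marco was at 7305 CPM in the 22 and 10421 in the 114, against 13079 in Kupffer-only droplets. Hmox1 was at 8137 and 7324 against 8054 CPM, and Vcam1 at 1838 and 2098 against 1971. Globin had a median of 8.31% of UMIs in the 22 and 9.94% in the 114. The 22 had a median of 12348 UMIs, the 114 a median of 11314, and 13 of the 22 had at least 10 erythroid UMIs.

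A further reference for globin-rich droplets with few other erythroid transcripts was added after the data were seen. It held 340 droplets with at least 50% globin and under 4 UMIs of the 4 genes, with a median of 3085 UMIs and 430.5 genes. With it, the 114 were fitted as 85.8% Kupffer, 7.91% of the stage of 50% globin or more and 5.84% of the globin-rich droplets. The 22 took 0% of it. For all joint droplets it took 2.88%. The stage of 10 to 50% globin then took 2.47% in place of 0.678%, and the stage of 50% or more took 56.1% of the non-Kupffer part in place of 80.1%. With it, 98.4% of genes lay within 1.5-fold of the sum.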

How the data were processed

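The authors deposited a matrix of whole-number UMI counts per gene and barcode for both libraries, per the file headers, which name Cell Ranger 3.0.1. GRCm38.p5 and R 3.6.1 are named by the submitters' processing notes. The annotation release is not given in the sources used here. The 2 libraries were split by barcode suffix.

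Barcodes under 200 genes or over 20% mitochondrial UMIs were left out. No doublet caller was run, and droplets with several cells remain. The 6942 kept barcodes of library 2 include joint droplets of 769 to 39150 UMIs. Counts were summed per class and scaled to 1000000 UMIs per class (CPM). Weights of the sums are maximum likelihood estimates. The 2-reference fit of pooled counts was tested on data simulated from the same references. The fits with stages, with globin-rich droplets and of single droplets were not tested that way. Per-gene intervals are exact Poisson, ratios conditional exact and shares Clopper-Pearson, all at 95%. Zero counts took a floor of 3 UMIs in ratios.

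The genes named were the 12 farthest above and the 12 farthest below the 2-reference sum, at 50 CPM in a pool and 30 UMIs, and members of 18 gene lists at 10 CPM, without numbered predicted genes. The droplets and lists were chosen with earlier results of these data known. The globin limits, stage split, depth ranges and the 3-gene subset were set after seeing values. Other lineages needed at least 10 UMIs and 1% of UMIs of their markers. Ahsp, Tent5c and the nuclear retained RNA list were not analysed here, and some genes that met the rule for naming are not reported here. Alternatives changed the filters, the rule, the references, the weighting and the thresholds. Fits used scipy 1.17.1 and numpy 2.4.6 in python 3.11.15, tables pandas 2.3.3 and figures matplotlib 3.10.9.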

Additional observations from a re-analysis of the deposited data

How the results depend on the processing

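The alternatives varied filters, the rule and the references within 1 library. No paired analysis was possible because each genotype has 1 mouse, the labels number no replicates and no result comes from a test. The cause of the changes below was not tested, except where an alternative leaves fewer droplets, genes or a wider threshold by construction.

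The joint share, 1.96% of kept barcodes, was 0.591% (41 droplets) with at least 8 erythroid UMIs, 0.303% (21) with a Kupffer share of 1.6% or more, 1.53% (92) without barcode sequences shared between libraries and 0.317% (22) with 4 UMIs of Klf1, Car1 and Hemgn alone. In the same order but without the last, the ratio of the joint median depth to the sum of both reference medians was 0.990, 0.696 and 0.959, and it was 0.684 with at least 2000 UMIs in every class.

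The erythroid part, 22.1%, was 32.8%, 10.3%, 18.8% and 29.4% under those 4 changes of rule. It was 22.3% when droplets under 500 genes were left out, 25.4% and 21.9% with limits of 10% and 40% mitochondrial UMIs, 20.7% with a Kupffer reference of at most 1 erythroid UMI, 22.4% with barcodes weighted equally and 8.75% without globin genes. It was 16.4% with 3 erythroid stages and 16.8% with globin-rich droplets too.

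Genes outside 1.5-fold of the sum, 11.5% of those tested, were 18.1%, 17.0%, 7.39% and 14.4% under the 4 changes of rule, 10.3% with the wider Kupffer reference, 8.30% with equal weights and 4.27% without globin genes. They were 63.0% with the weight set by mean depths, 15.3% and 9.91% with minima of 10 and 200 CPM, 3.68% at 2-fold, 1.94% with stages and 1.59% with globin-rich droplets too. The 5 genes above or below both references were 74, 251, 16 and 66 under the 4 changes of rule. They were 26 with at most 10% mitochondrial UMIs, 22 with equal weights and 228 at 10 CPM, with 0 at 200 CPM and 0 at 2-fold.

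For the 24 genes ranked by distance from the sum, 20 of 336 values turned sign. With the 3-gene rule, log2 differences became -0.032 for Rsad2, -1.22 for Bpgm, -0.42 for Ube2o, -0.62 for Fam46c, -0.23 for Fam213a, -1.67 for Tmcc2, -0.997 for Gadd45a and -0.042 for Epb41. With the weight from mean depths they became -0.17 for Fam213a, -0.48 for Cdr2, -0.74 for Tmcc2, -0.60 for Gadd45a, -0.12 for Epb41 and -0.15 for Isg15. Bpgm was at -0.87 with a Kupffer share of 1.6%, Tmcc2 at -0.078 with equal weights and -0.30 with stages, Ighm at 0.22 with at most 10% mitochondrial UMIs, and Atp1b2 and Podxl at 0.30 and 0.11 without shared barcodes. Of 238 list medians 46 turned sign, 4 of them from a median past 1.5-fold. Without globin genes the medians became 0.46 for heme synthesis and 0.78 for membrane genes, and both were 0.25 with the 3-gene rule. Late maturation was at -0.31 with that rule. With the weight from mean depths, late maturation was at -0.10, globin at -0.52, MHC class II at 0.53 and inflammatory genes at 1.11. Those 4 were of the cell cycle list, at 0.31 without globin genes, 0.60 with the 3-gene rule, 0.10 with stages and 0.12 with globin-rich droplets too. The 3-gene rule, the stages and the globin-rich reference were added after seeing the data.

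The Kupffer-only pool itself held 3.91% globin and 104 CPM of Alas2, so the fitted erythroid part counts only what lies above that. Ranks of genes with under 30 joint UMIs, which include all 12 farthest below the sum, rest on few counts.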
